A study of Mus musculus with 6 samples.

Results

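The 10 genes described here are the cadherins and regulators by which epithelial and mesenchymal cell states are usually told apart. They are the epithelial genes Cdh1 and Epcam, the mesenchymal genes Cdh2 and Vim, and the transcription factor genes Snai1, Snai2, Twist1, Twist2, Zeb1 and Zeb2. They were taken by symbol, which gave 22 of the 45037 probe sets tested. The tumours grew from GLMT1 cells, a GRS/A line whose name refers to a lung metastasis, inoculated under the back skin of male GRS/A mice. The hosts were tenascin-C-deficient mice of the line GRS/A-TgH(TnC) (TNKO, 3 tumours) or wild-type GRS/A mice (WT, 3 tumours), 10 weeks old in the sample labels, and the series' design text gives the hosts as 8 weeks old when used. The same cell line was used in every host, and the labels give the genotype of the host as the difference between the groups. Each tumour was measured on 1 Affymetrix array, and the labels call the tumours of a group biological replicates.

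In epithelial-mesenchymal transition (EMT), epithelial cells loosen their junctions and take on a migratory, fibroblast-like state. Transcription factors of the Snail, ZEB and Twist families drive it, and the Snail and ZEB proteins bind E-box sequences in the promoters of epithelial genes such as Cdh1 and repress them. Tumours also hold fibroblasts, endothelial cells and macrophages that express Vim and several of these factors without any transition. RNA of a whole tumour does not separate fewer cells of a type from less RNA per cell, nor tumour cells from host cells.

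The deposited values are taken as log2, and the arrays were nearly identical in them. A typical probe set (the median) had a range of 5.46 millionths of a log2 unit across the 6 tumours, where 1 millionth is 1e-06, and 0.553% had a range above 0.01. Each difference below is TNKO minus WT, in millionths of a deposited log2 unit or divided by the within-group SD (residual SDs), and none can be read as a fold. Tnc itself averaged 8.82 ± 0.018 in TNKO hosts and 9.02 ± 0.024 in WT hosts (SD, n = 3 each; adjusted p = 0.0537) in its brighter probe set. TNKO tumour 3 stood apart in hair follicle genes, in which it was the highest array in 9 of 9. In 16 of 18 hybridisation controls, spiked-in RNA that comes from no mouse, every TNKO array was above every WT array. The same held for 6378 of the 45037 tested probe sets. Several of the controls measure the same spiked-in RNA, so the 18 are not separate observations. The part of array processing in the differences below was not tested.

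By level, Vim was among the brightest probe sets of the arrays, while the epithelial members lay nearer the middle. The 3 probe sets of Vim, the intermediate filament of mesenchymal cells, averaged 13.47, 12.98 and 12.79 over the 6 tumours, between the 99.8th percentile of all tested probe sets and the top. Cdh1, the epithelial cadherin of adherens junctions, averaged 7.48, at the 71.7th percentile. Epcam, an epithelial cell adhesion molecule, averaged 7.04 and 6.66 in its 2 probe sets, at the 63.2nd and 53.2nd percentiles. Cdh2, the cadherin of neural and mesenchymal cells, lay at the 56.6th and 42.9th. Of the factors, Zeb1 reached the 94.9th percentile, Snai2 the 85.2nd and Zeb2 the 79.2nd in their brightest probe sets, while Twist2 (68.1), Snai1 (67.6) and Twist1 (56.9) were lower in that scale. The suffix of 1447643_x_at, the brightest probe set of Snai2, marks probes that can also match other transcripts. Its other probe set, 1418673_at, lay at the 68.2nd percentile. How bright a probe set is depends on its own probes, so these ranks do not order the genes by RNA amount.

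**Figure D1:**
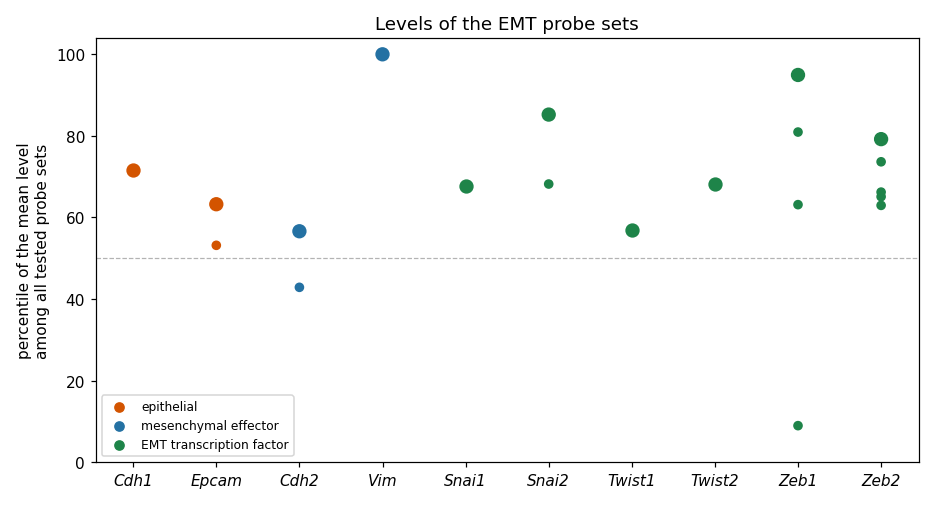
Percentile of the mean level over the 6 tumours (y axis, 0 to 100) among the 45037 tested probe sets for each probe set of the 10 genes, with the brightest probe set of a gene drawn larger. The 3 probe sets of Vim lie at the top, and those of Cdh1 and Epcam lie between the 53.2nd and 71.7th percentiles.

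Among related genes, mesenchymal effectors were brighter than epithelial surface genes. Of 18 mesenchymal and EMT effector genes, 17 were above the median level of all probe sets, and their median gene lay at the 96.9th percentile. Of 19 tight junction and other epithelial surface genes, 7 were above it, with a median at the 41.9th percentile. Over all genes, again by the brightest probe set, the median was the 64.4th percentile. Fibroblast markers, a cell type that also makes the mesenchymal genes, were above the median in 10 of 10 (median percentile 95.2), and macrophage and monocyte markers in 10 of 10. Epithelial regulators were above it in 5 of 14 (median percentile 41.9), mammary luminal and simple epithelial markers in 5 of 9 (57.1) and epidermal keratinocyte markers in 4 of 9 (42.6). Each of these lists spread widely, from Grhl3 (11.4), Csn3 (8.24) and Flg (1.25) up to Foxa1 (95.4), Krt8 (98.9) and Krt14 (97.2). Of the other simple keratins, Krt7 lay at 90.85, Krt18 at 89 and Krt19 at 25.3. The genes of these lists were named here after their values were seen. Adherens junction and desmosome partners were above it in 12 of 18 (63.7), near the median of all genes.

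Both epithelial genes had a probe set in which TNKO tumours 1 and 2 were the 2 lowest arrays, while TNKO tumour 3 lay with or above the WT tumours. Relative to its mean over the 6 arrays, Cdh1 (1448261_at) stood at -596, -556 and 441 millionths in TNKO tumours 1, 2 and 3, against 300, 96.4 and 314 millionths in WT tumours 1, 2 and 3. The groups overlapped, because TNKO tumour 3 had the highest value of all. The difference was -474 millionths (SE 324, -1.12 residual SDs, adjusted p = 0.48). Without TNKO tumour 3 it was -813 millionths (adjusted p = 0.122, against 0.122 to 0.99 over all alternatives), and without TNKO tumour 1 or 2 it was -295 or -315.

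Epcam was measured by 2 probe sets that behaved differently. The dimmer one, 1416579_a_at, stood at -2556, -2105 and 825 millionths in the TNKO tumours, against 1377, 554 and 1905 millionths in the WT tumours. It had the widest span of the 22 probe sets, 4460 millionths, which was wider than in 99.2% of all probe sets. TNKO tumours 1 and 2 lay far below the rest and TNKO tumour 3 lay inside the WT range, so the groups overlapped. The difference was -2557 millionths (SE 1056, -1.85 residual SDs, adjusted p = 0.277). Without TNKO tumour 3 it was -3610 (adjusted p = 0.135, against 0.135 to 0.99 over all alternatives), and without TNKO tumour 1 or 2 it was -1920 or -2140. The brighter probe set, 1447899_x_at, spanned 9.88 millionths and differed by 1.51 millionths (adjusted p = 0.815), and its suffix marks probes that can also match other transcripts.

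The promoters of Epcam and Snai1 are shown because, of those available for the 10 genes, only these held the 6-base E-box that Snail and ZEB proteins recognise. Both are the 250 bases before the gene's start, from RefSeq on GRCm38.p6, plus strand, with CACCTG and its reverse complement CAGGTG in capitals.
Epcam, chr17:87635729-87635978: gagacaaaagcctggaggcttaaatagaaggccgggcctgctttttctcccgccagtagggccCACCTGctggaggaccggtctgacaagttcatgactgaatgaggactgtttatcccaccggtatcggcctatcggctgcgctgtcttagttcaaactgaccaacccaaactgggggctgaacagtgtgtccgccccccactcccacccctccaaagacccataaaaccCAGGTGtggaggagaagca
Snai1, chr2:167537945-167538194: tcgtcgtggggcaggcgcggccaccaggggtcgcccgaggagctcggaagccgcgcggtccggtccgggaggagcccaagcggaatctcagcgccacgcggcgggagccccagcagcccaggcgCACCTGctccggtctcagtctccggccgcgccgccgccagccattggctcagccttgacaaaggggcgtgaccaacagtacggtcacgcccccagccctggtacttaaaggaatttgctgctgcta
Epcam holds a box that begins 187 bases and another that begins 19 bases before the start, and Snai1 holds 1, which begins 126 bases before it. The table had promoters for 6 of the 10 genes, Epcam, Vim, Snai1, Twist1, Twist2 and Zeb2, and the motif, searched on both strands with overlaps allowed, was in 2 of them. It was in 17.2% of 32851 promoter windows of the same length, so a match is a description and not a binding site.

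Of the mesenchymal effectors, Vim came nearest to a host difference. Its brightest probe set, 1450641_at, stood at -9.01, -4.76 and -6.05 millionths in the TNKO tumours, against 7.22, 5.65 and 6.95 millionths in the WT tumours. All 3 TNKO tumours lay below every WT tumour, and 28% of all probe sets had groups that did not overlap in one direction or the other. The difference was -13.2 millionths (SE 1.28, -8.00 residual SDs), with an adjusted p of 0.0593 that missed the threshold of 0.05. When only probe sets above the median level were tested it passed (adjusted p = 0.0415), and over all alternatives the adjusted p ran from 0.0415 to 1. The probe set 1456292_a_at also had groups that did not overlap, with a difference of -12.9 millionths (adjusted p = 0.254). In 1438118_x_at the groups overlapped, with a difference of -11.1 millionths (adjusted p = 0.537). The 3 probe sets thus had similar differences and unlike spreads, with residual SDs of 1.65, 6.50 and 11.4 millionths.

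In both probe sets of Cdh2, TNKO tumours 1 and 2 were the 2 highest arrays, where they were the 2 lowest in Cdh1. The brighter, 1418815_at, stood at 43.8, 83.1 and -34.6 millionths in the TNKO tumours, against -23.1, 7.34 and -76.5 millionths in the WT tumours. WT tumour 3 was the lowest, and the groups overlapped through TNKO tumour 3. The difference was 61.5 millionths (SE 39.6, adjusted p = 0.455), and it was 94.2 (adjusted p = 0.26) without TNKO tumour 3, 35.4 without TNKO tumour 2 and 38.7 without WT tumour 3. The other probe set, 1449244_at, had TNKO tumour 3 as the lowest array and differed by 7.31 millionths (adjusted p = 0.871).

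**Figure D2:**
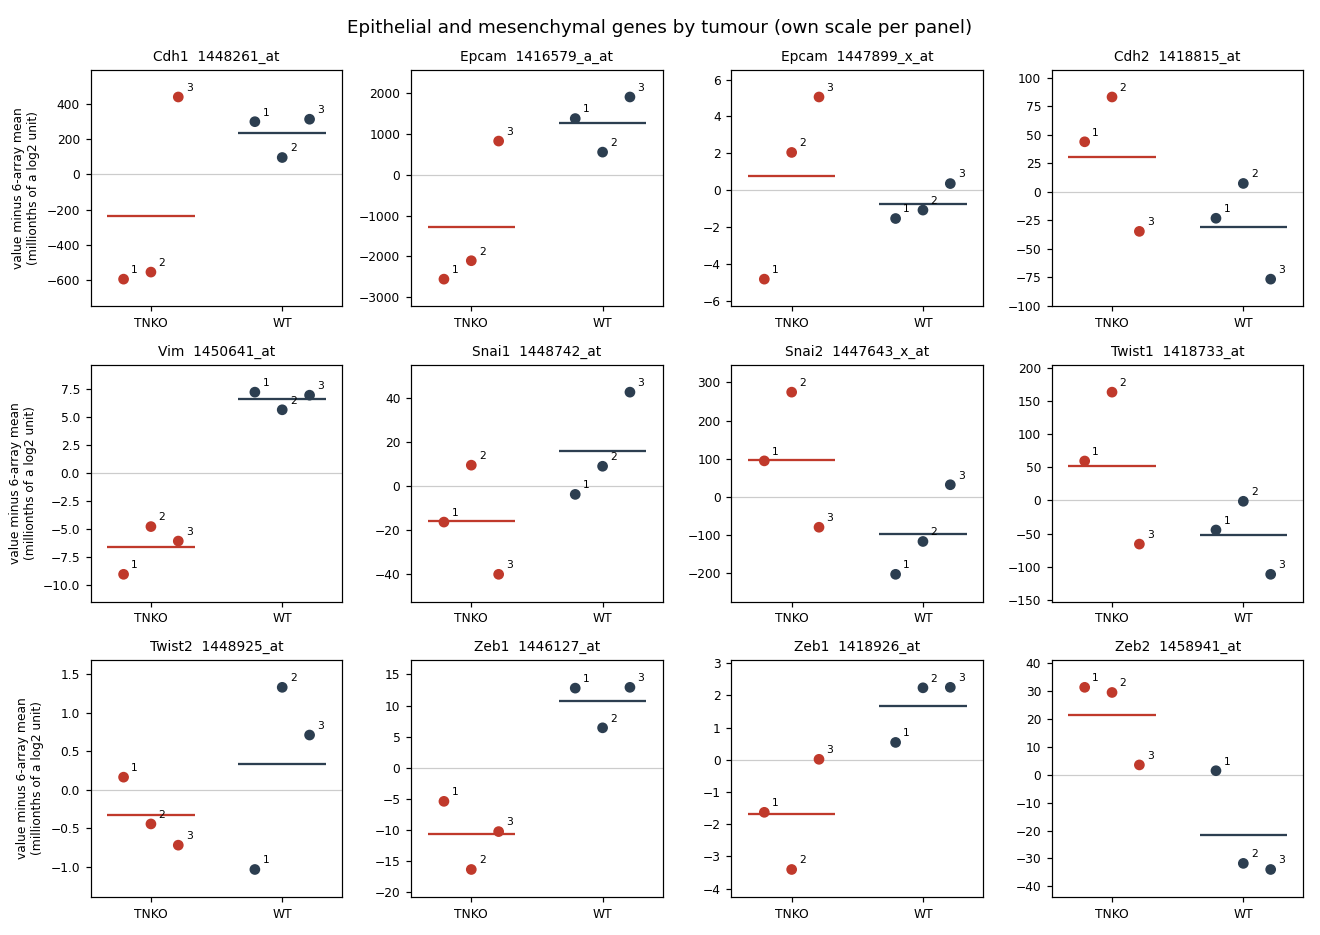
Value of 12 of the probe sets in each tumour minus the mean of the 6 tumours (y axis, millionths of a deposited log2 unit, own scale per panel), for TNKO hosts at the left and WT hosts at the right, with lines at the group means and points numbered by replicate. Vim 1450641_at and both Zeb1 probe sets show TNKO tumours below all WT tumours, Zeb2 1458941_at shows them above, and Cdh1 and Epcam 1416579_a_at show TNKO tumours 1 and 2 alone at the bottom.

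Among the Snail factors, Snai1, a repressor of Cdh1, stood at -16.5, 9.33 and -40.2 millionths in the TNKO tumours, against -3.93, 8.84 and 42.5 millionths in the WT tumours. The groups overlapped, with a difference of -31.6 millionths (SE 18.6, adjusted p = 0.417), which was -19.4 without TNKO tumour 3 and -18.2 without WT tumour 3. Snai2, which encodes Slug, had values of 94.2, 274 and -79.9 millionths in the TNKO tumours and -203, -117 and 31.6 millionths in the WT tumours in its brighter probe set, 1447643_x_at. TNKO tumours 1 and 2 were the highest, WT tumour 1 the lowest, and the difference was 193 millionths (SE 115, adjusted p = 0.423), or 103 without TNKO tumour 2. Its other probe set, 1418673_at, differed by 9.45 millionths (adjusted p = 0.762).

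The Twist genes, basic helix-loop-helix factors of mesoderm and of EMT, were each measured by 1 probe set. Twist1 stood at 59.5, 163 and -65.8 millionths in the TNKO tumours, against -44.5, -1.22 and -111 millionths in the WT tumours. As in the brighter probe set of Cdh2, TNKO tumours 1 and 2 were the 2 highest and WT tumour 3 the lowest, and the difference was 105 millionths (SE 68.8, adjusted p = 0.463), or 164 (adjusted p = 0.243) without TNKO tumour 3 and 49.2 without TNKO tumour 2. Twist2 hardly varied, with a span of 2.36 millionths and a difference of -0.667 (adjusted p = 0.671).

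The ZEB genes encode zinc finger and homeodomain repressors, and they are held down in epithelial cells by the miR-200 family. As deposited, all 4 probe sets of Zeb1 had a lower mean in TNKO hosts and all 5 of Zeb2 a higher one. With array medians subtracted or quantile normalization those of Zeb2 too were lower, but then only 1.3% and 1.75% of all genes were higher. The probe set 1446127_at of Zeb1 stood at -5.43, -16.4 and -10.3 millionths in the TNKO tumours, against 12.8, 6.41 and 12.9 millionths in the WT tumours. The groups did not overlap, and the difference was -21.4 millionths (SE 3.59, -4.56 residual SDs, adjusted p = 0.0944). The brightest Zeb1 probe set, 1418926_at, also had groups that did not overlap, at -1.63, -3.40 and 0.0145 millionths in the TNKO tumours and 0.539, 2.23 and 2.25 in the WT tumours (difference -3.35, adjusted p = 0.203). The other 2 probe sets of Zeb1, 1443005_at and 1420243_at, differed by -0.0523 and -0.067 millionths.

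Zeb2 had 2 of 5 probe sets in which every TNKO tumour lay above every WT tumour, against 6378 of the 45037 tested. The probe set 1458941_at stood at 31.3, 29.5 and 3.51 millionths in the TNKO tumours, against 1.43, -31.8 and -34.0 millionths in the WT tumours. TNKO tumour 3 was just above WT tumour 1, and the difference was 42.9 millionths (SE 13.6, 2.41 residual SDs, adjusted p = 0.198). The probe set 1456389_at differed by 5.17 millionths (2.24 residual SDs, adjusted p = 0.218). The brightest, 1422748_at, overlapped and differed by 9.62 millionths (adjusted p = 0.898), and it was negative without TNKO tumour 1 (-0.583) or WT tumour 3 (-8.27). The remaining probe sets, 1434298_at and 1454200_at, differed by 0.0577 and 29.6 millionths. Whether the differences of Zeb1 and Zeb2 differ from each other was not tested.

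**Figure D3:**
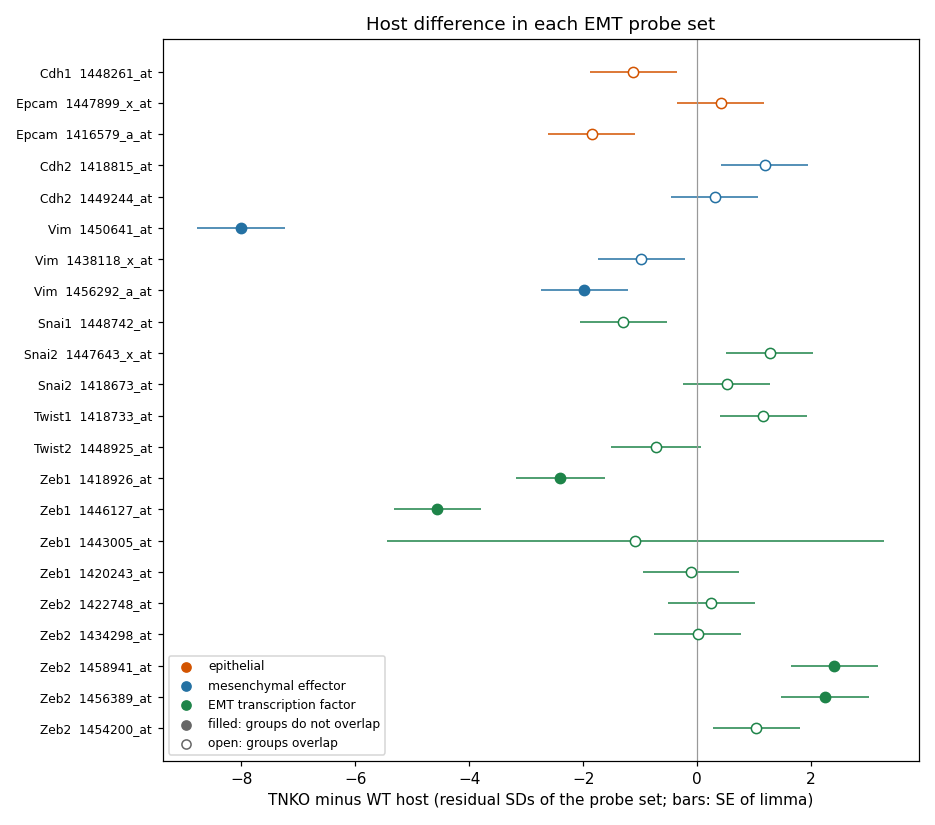
TNKO minus WT host for the 22 probe sets in the values as deposited (x axis, residual SDs of each probe set, with the SE from limma as bars), coloured by class, with filled points where the TNKO and WT tumours do not overlap. Vim 1450641_at lies farthest from 0 at -8.00, and the highest is Zeb2 1458941_at at 2.41.

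Counted together, the probe sets of the 10 genes behaved much like the rest of the array. By limma 0 of the 22 passed adjustment over all probe sets, where 79 (0.175%) did. At an unadjusted p under 0.05 there were 5 of 22 (22.7%), Vim and 2 each of Zeb1 and Zeb2, against 20.3% of all probe sets. The groups did not overlap in 6 of 22 (27.3%), against 28% of all. The means were higher in TNKO hosts in 11 and lower in 11, with a median difference of 0.00267 millionths, against 0.0997 over all probe sets. As deposited, of the 6 genes with several probe sets, 5 had all of them on one side, lower in TNKO hosts for Vim and Zeb1 and higher for Cdh2, Snai2 and Zeb2 (all of which turned lower under both scalings), while Epcam was split. All 11 positive differences turned negative when array medians were subtracted and also under quantile normalization, which made the 3 differences of Vim 0. Only 1.3% and 1.75% of all genes were higher under these scalings, so these turns say little about the 10 genes.

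TNKO tumours 1 and 2, the lowest pair in Cdh1 and Epcam 1416579_a_at, were also lowest in skeletal muscle markers and were highest in adipocyte markers. The order of the other tumours was not shared. WT tumour 2 was the lowest WT tumour in Cdh1 and Epcam 1416579_a_at but the highest in the median muscle marker. In the median adipocyte marker TNKO tumour 3 lay inside the WT range. Of the 22 probe sets, 3 had TNKO tumours 1 and 2 as the lowest pair, Cdh1, Epcam 1416579_a_at and Zeb1 1418926_at, against 9.35% of all probe sets. They were the 2 highest in 5 of 22, both of Cdh2, Twist1, Snai2 1447643_x_at and Zeb2 1458941_at, against 13.8% of all. Skeletal muscle markers had these tumours lowest in 10 of 10 genes, with a median marker at -57260, -50660 and 54660 millionths in TNKO tumours 1, 2 and 3, against 15760, 40890 and 12160 in WT tumours 1, 2 and 3. Adipocyte markers had them highest in 7 of 7, endothelial markers in 6 of 10 and fibroblast markers in 4 of 10. Markers of epidermal keratinocytes, cells that also express Cdh1, had them lowest in 2 of 9, with medians of -52.8, -88.4 and 12.4 millionths in the TNKO tumours and -98.6, -49.9 and 228 in the WT tumours. By level, skeletal muscle markers ranged from the 7.64th to the 79.8th percentile, adipocyte markers from the 16.7th to the 90.3rd and keratinocyte markers from the 1.25th to the 97.2nd. The part of these cells in the values of the 10 genes was not tested.

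**Figure D4:**
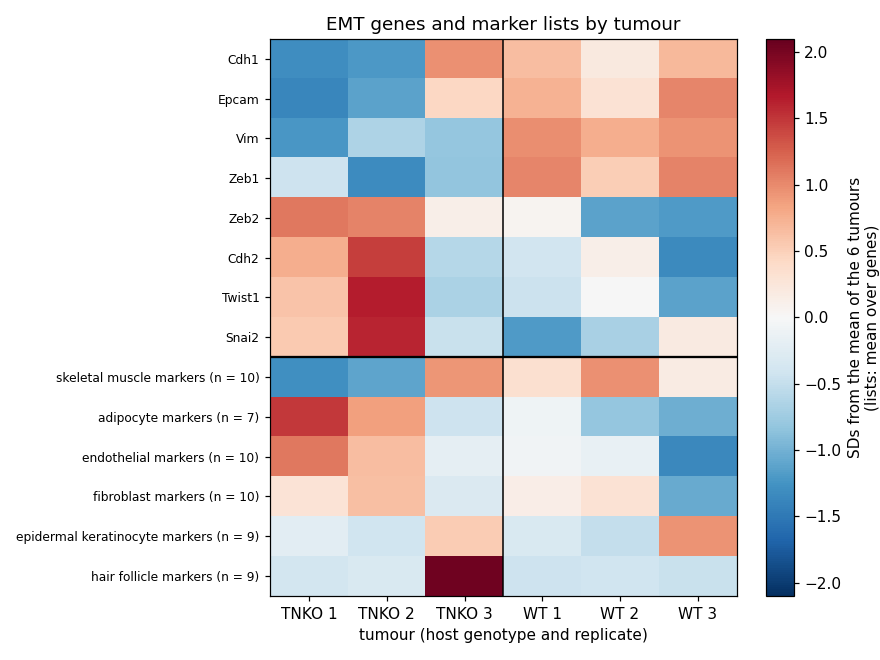
Value of 8 of the probe sets (above the line) and mean over the genes of 6 marker lists (below it) in each tumour, as SDs from the mean of the 6 tumours, with TNKO tumours at the left and WT tumours at the right. Cdh1, Epcam and skeletal muscle markers are low in TNKO tumours 1 and 2, where Cdh2, Twist1 and adipocyte markers are high, and hair follicle markers are high in TNKO tumour 3 alone.

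The other genes of the pathway were read from 6 lists, which held 101 measured genes. By limma 0 of them passed adjustment, where 0.121% of all genes did. At an unadjusted p under 0.05, 21 did (20.8%), against 18.4% of all genes. Junction partners of the cadherins had a higher mean in TNKO hosts in 13 of 18 as deposited (1 with array medians subtracted and 0 with quantile normalization), with 5 higher and 1 lower at that unadjusted threshold, against 9.99% higher and 8.43% lower over all genes. Afdn, an actin-binding adherens junction protein, differed by 46.8 millionths (adjusted p = 0.0675). Dsg2, a desmosomal cadherin, differed by 4.87 (adjusted p = 0.0758) and Nectin1, an adhesion receptor, by 3.58 (adjusted p = 0.112). The catenin genes of the list, Ctnna1, Ctnnb1, Ctnnd1 and Jup, differed by -0.0733, -0.0533, -8.48 and 93.1, named after their values were seen.

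The remaining epithelial lists also had more higher than lower means as deposited. Under the scalings few genes of any kind were higher, 1.3% of all genes with array medians subtracted and 1.75% with quantile normalization, so counts under them say little about a list. Tight junction and surface genes were higher in 14 of 19 (0 under both scalings), among them Mal2 at 3.01 millionths (adjusted p = 0.214), Cldn3, a claudin, at 1.68 (adjusted p = 0.246) and Muc1, a mucin, at 6.98 (adjusted p = 0.312). Of the epithelial regulators 9 of 14 were higher (2 under both scalings). Ehf, an epithelial ETS factor, differed by 11.4 millionths (8.15 residual SDs, adjusted p = 0.0585). Grhl3 differed by 8.98 (adjusted p = 0.294) and Klf4 by -63.2 (adjusted p = 0.276). Over all genes 57.6% were higher, and TNKO tumour 3 had the highest mean of the 6 arrays in each of these 3 epithelial lists.

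The lists on the mesenchymal side had more lower than higher means as deposited, where 57.6% of all genes were higher. With array medians subtracted 2 of the effectors and 0 of the other factors were higher. With quantile normalization 1 and 0 were. As for the epithelial lists, counts under the scalings say little about a list. Mesenchymal and EMT effectors were lower in 11 of 18, with 4 lower and 1 higher at an unadjusted p under 0.05, where 8.43% of all genes were lower and 9.99% higher. Cd44, a hyaluronan receptor, differed by -41.9 millionths (-7.70 residual SDs, adjusted p = 0.0607), with no overlap of the groups. Tpm1, a tropomyosin, differed by -8.33 (adjusted p = 0.158), while S100a4, a calcium-binding protein of motile cells, differed by 86.7 (adjusted p = 0.123). Of the other EMT factors and cofactors 12 of 19 were lower, 4 of them at the unadjusted threshold. Tcf4, a helix-loop-helix partner, differed by -5.33 millionths (adjusted p = 0.149), Prrx2 by -1024 (adjusted p = 0.169) and Sox4 by -62.6 (adjusted p = 0.232).

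Partners of the Snail and ZEB proteins were lower in 9 of 13 as deposited. With array medians subtracted 0 of the 13 were higher, and with quantile normalization 1 was. Gsk3b, the kinase that marks Snail for degradation, differed by -62.7 millionths (adjusted p = 0.149), and the corepressor Rcor1 by -14.1 (adjusted p = 0.188). Csnk2a1, a casein kinase subunit, differed by -44.1 (adjusted p = 0.246). The 11 cell type lists held 96 measured genes, of which 0 passed by limma and 6 (6.25%) had an unadjusted p under 0.05, against 18.4% of all genes. Among the stromal markers that share expression with Vim and Zeb1, Dcn, a fibroblast proteoglycan, differed by -45.7 millionths (adjusted p = 0.104), with no overlap, while fibroblast markers were higher in 8 of 10 as deposited and in 3 of 10 under both scalings.

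The genes whose pattern over the 6 tumours was most like that of Cdh1 were Sugct, Sppl2a and Shisa2, with Pearson correlations of 0.993, 0.99 and 0.987, the highest among 18183 genes. Their spans were 0.571, 6.97 and 28.3 millionths, against 1037 for Cdh1. Those most like Vim were Fdps, Hps5 and Rad52, at 0.998, 0.996 and 0.994. Fdps, an enzyme of isoprenoid synthesis, differed by -205 millionths (adjusted p = 0.0679). Hps5, of a lysosome biogenesis complex, differed by -12.9 and the DNA repair gene Rad52 by -113, both with an adjusted p of 0.0495. With 6 arrays in 2 groups these likenesses are descriptions. The groups did not overlap in Vim, so genes chosen for likeness to it tend to have small p-values, which are no separate result.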

How the data were processed

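RNA of 6 tumours, 3 from TNKO and 3 from WT hosts, was measured on 1-colour Affymetrix arrays. Per the labels' protocols, each labelling reaction took 100 ng of total RNA. The authors deposited 1 normalized value per probe set and array, taken as log2 from its range. The submitters' processing notes name R 2.7.2. The way probes were summarized and normalized, and the log base, were not given in the sources used here. Array medians ran from 6.567 to 6.57. There is no read depth for arrays, so precision is set by how many there are.

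Controls (64 probe sets) were excluded. Symbols came from the platform annotation of 2016, checked by gene identifier (GRCm38.p6 table, 0 symbols changed). Of the probe sets 34945 had 1 symbol, 932 several and 9160 none, and the brightest probe set stood for each of 18193 genes. TNKO minus WT was tested with limma 3.58.1 (R 4.3.3; linear model and empirical Bayes moderation), two-sided, with Benjamini-Hochberg adjustment over 45037 probe sets and a threshold of 0.05. The procedure was tested on simulated data. Between 21 and 43 values were identical between arrays of a pair, so none was a copy.

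The genes, the 17 lists (197 of 212 genes measured) and the tests were chosen with earlier results of these data known. Named were all probe sets of the 10 genes, up to 3 genes of a list with the smallest unadjusted p (given here for the pathway lists, and by counts for most cell types), and the 3 genes most like Cdh1 and Vim. Genes named outside this rule are marked. The alternatives tried were subtraction of array medians, quantile normalization, only brighter probe sets, an eBayes trend, no moderation, a replicate block, leaving out each array, and the mean over probe sets of a gene.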

Additional observations from a re-analysis of the deposited data

How the results depend on the processing

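Of 272 values of the 10 genes under the alternatives, 234 kept their direction and their side of the threshold, 34 reversed, 3 became 0 and 1 passed the threshold (Vim 1450641_at, adjusted p = 0.0415, when only probe sets above the median level were tested). The 3 that became 0 were the Vim probe sets under quantile normalization, which gives probe sets of the same rank the same value. Subtracting array medians and quantile normalization put the median difference of all probe sets at -764 and -538 millionths, against 0.0997 as deposited. Subtracting medians moves the difference of every probe set by the same amount, and the signs that turned in that setting turned by this shift. With medians subtracted, the differences became -762 for Epcam 1447899_x_at, -702 and -756 for Cdh2, -571 and -754 for Snai2, -659 for Twist1, and -754, -764, -721, -759 and -734 for Zeb2. With quantile normalization they became -431 for Epcam 1447899_x_at, -688 and -414 for Cdh2, -858 and -660 for Snai2, -612 for Twist1, and -526, -537, -780, -865 and -491 for Zeb2. The mean over its probe sets gave Epcam -1280.

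Leaving out each array gave -0.637 to 4.31 for Epcam 1447899_x_at, -3.35 to 25.6 for Cdh2 1449244_at, -2.5 to 18 for Snai2 1418673_at, -0.486 to 0.238 for Zeb1 1420243_at, -8.27 to 34.2 for Zeb2 1422748_at and -5.05 to 4.88 for Zeb2 1434298_at. The count of all probe sets called was 0 with quantile normalization, 285 above the median level, 2 without moderation, 0 with the replicate block, and 0 to 73 with an array left out, against 79. The count among the 22 was 1 above the median level and 0 under every other alternative. The 5 at an unadjusted p under 0.05 became 2 with quantile normalization (1.31% of all), 0 with medians subtracted (0.193%), 1 of 10 genes by the mean over probe sets (22.9%), and 2 to 9 with an array left out, the 9 being without TNKO tumour 3 (18.7%). The 6 without overlap became 2 with quantile normalization (15.5% of all), 2 with medians subtracted (2.13%), 2 of 10 genes by the mean (31.3%), and 7 to 12 with an array left out, the 12 being without TNKO tumour 3 (40.9%). Genes of the lists higher in TNKO hosts were 121 as deposited, 27 with quantile normalization and 26 with medians subtracted. With medians subtracted 4 skeletal muscle, 3 adipocyte and 6 hair follicle markers were called, against 0 of each. Why the array medians differed between the groups, and the cause of the other moves, were not tested.

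Same-numbered tumours did not deviate together (correlations of 0.0289, -0.0157 and 0.00531), so the numbers were not taken as pairs, and the replicate block called 0 of the 22. The number of arrays and the unknown scale of the values limit what can be read from any difference.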
